A study of Mus musculus with 2 samples.

Results

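Skeletal muscle satellite-like cells were a rare population among stromal cells sorted from the mouse mammary gland, with 151 of 44506 filtered cells. A cell was counted when it had at least 500 detected genes, at most 10% mitochondrial UMIs, no UMI of Pdgfra, the receptor gene that marks fibroblasts, and at least 1 UMI of at least 2 of the 4 genes Pax7, Myf5, Myod1 and Cdh15. A UMI (unique molecular identifier) stands for 1 captured transcript. The cells were thus chosen by their UMIs of these 5 genes, whose values are a description and not a finding. Pubertal glands gave 44 of 21534 filtered cells, or 0.204% (95% exact Clopper-Pearson interval 0.149% to 0.274%). Adult glands gave 107 of 22972, or 0.466% (0.382% to 0.563%). The adult share was 2.28 times the pubertal one (counting interval 1.59 to 3.32).

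The 2 single-cell RNA-seq libraries came from female wildtype C57BL/6 mice, 1 at puberty (4 weeks of age) and 1 of virgin adults (9 weeks), both labelled as replicate 2. Per the labels, 2 females entered each condition, and no engineered allele or agent is named for either group. Cells had been sorted as lineage-negative and CD24-negative, which according to the study's methods depleted CD45+, CD31+ and TER-119+ cells. With 1 library per stage there was no replicate check and no test between the stages. All intervals below cover counting error only, and the spread between animals is unknown.

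Satellite cells are the stem cells of skeletal muscle and lie between the muscle fiber and its basement membrane. In resting muscle they are quiescent, hold the transcription factor Pax7 and often Myf5, and need Notch signaling to stay undifferentiated. On activation they make Myod1 protein, grow and divide, and those that commit switch on Myog and then the genes of fusion and of the contractile apparatus. Mammary fat pads lie close to skeletal muscle of the body wall, and the labels name no muscle.

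Sequencing depth was alike in the 2 libraries. Medians over the filtered cells were 11763 UMIs per pubertal and 10842.5 per adult cell. Satellite-like cells were shallower than the Pdgfra+ cells, with a median of 5486 UMIs in pubertal and 5268 UMIs in adult cells and of 2305 and 2094 detected genes. The Pdgfra+ cells (18870 and 20985 cells with a Pdgfra UMI and under 2 of the 4 genes) had medians of 12186 and 11263 UMIs. Summed over cells, the satellite-like population held 247894 pubertal and 581898 adult UMIs, and levels are given as CPM, a gene's UMIs scaled to a common total of 1e6 per sum. Doublet prediction marked 0 pubertal and 1 adult satellite-like cell. The 2 libraries had 145 cell barcodes in common, none of them among the satellite-like cells.

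Cells just outside the rule were of several kinds. A further 8 pubertal and 14 adult cells had at least 2 of the 4 genes together with Pdgfra UMIs. Of these, 7 and 11 were predicted doublets, their median depths were 16357.5 and 15628 UMIs, and the fibroblast proteoglycan gene Dcn stood at 6562 and 6917 CPM. Cells with exactly 1 of the 4 genes and no Pdgfra UMI numbered 24 and 33. In those 33 adult cells Des stood at 846 CPM and Dcn at 168 CPM, against 883 and 218 CPM in the 73 adult cells just inside the rule with exactly 2 of the genes. In the 24 pubertal cells Des stood at 351 CPM and Dcn at 2465 CPM, against 437 and 57.0 CPM in the 29 cells with exactly 2. In an unsupervised clustering of each library, all 44 pubertal satellite-like cells fell in 1 cluster of 83 cells and all 107 adult ones in 1 cluster of 235 cells. Both clusters also held Pdgfra+ cells, in the adult cycling ones among them, so neither was made up of satellite-like cells alone. The 4 defining genes and Pdgfra were not left out of the clustering, so it may not be independent of the rule.

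Among the genes that defined the population, Pax7 and Myf5 were the most widely detected. Pax7, a paired-box factor that marks satellite cells (GRCm38 chr4:139737062-139833528, minus strand), had UMIs in 37 of 44 pubertal and 103 of 107 adult cells. Myf5, an early myogenic factor (chr10:107482908-107486134, minus strand), had UMIs in 34 and 90 cells, and Pax7 and Myf5 occurred together in 31 and 86. Cdh15, the muscle cadherin (chr8:122847966-122867397, plus strand), was detected in 24 and 39 cells. Myod1, the factor of activated myoblasts (chr7:46376474-46379099, plus strand), was detected in 11 and 22 cells. Exactly 2 of the genes were present in 29 pubertal and 73 adult cells, 3 in 12 and 28, and all 4 in 3 and 6. The same genes were nearly missing from the Pdgfra+ cells, where Pax7 had UMIs in 5 of 18870 pubertal and 5 of 20985 adult cells.

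**Figure D1:**
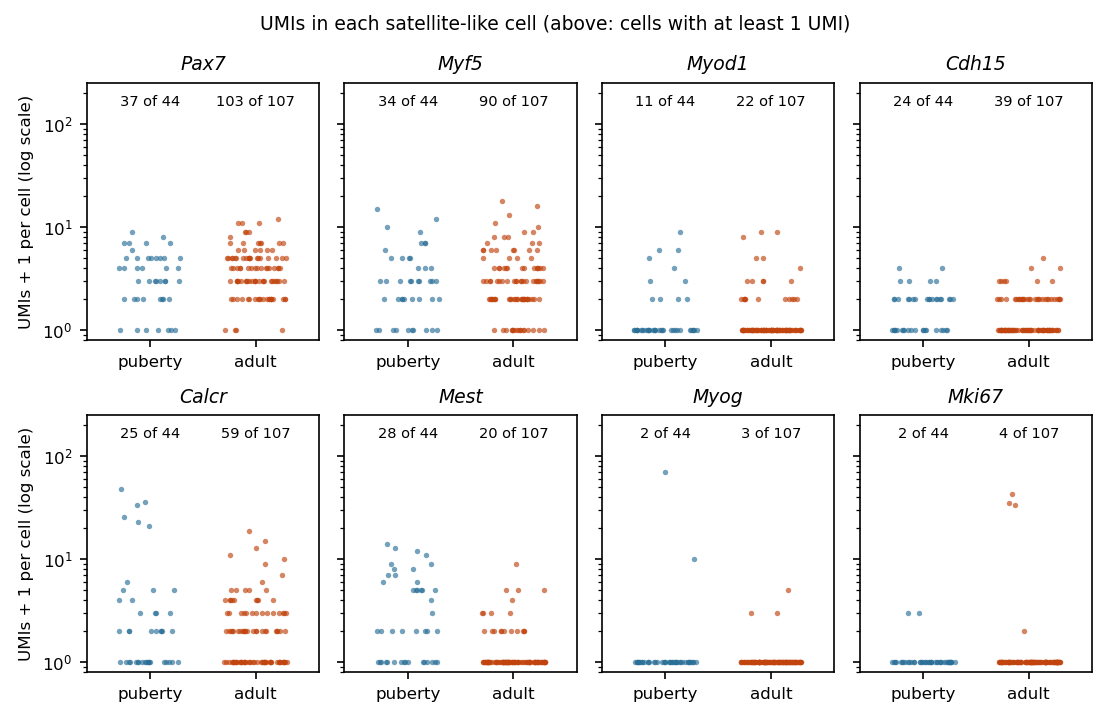
Each point is 1 satellite-like cell (44 pubertal, 107 adult). The y axis gives UMIs + 1 of the gene on a log scale, and the text above each group counts cells with at least 1 UMI. Pax7 had UMIs in 37 of 44 and 103 of 107 cells, Calcr was at 20 UMIs or more in 6 pubertal cells, Mest was detected in 28 of 44 pubertal and 20 of 107 adult cells, and the highest Myog and Mki67 counts were held by a few single cells.

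The label was checked on 12 satellite cell genes that the rule did not use. All 12 were at least 2-fold higher than in Pdgfra+ cells in both libraries, where 7.72% of 20057 genes tested at puberty and 4.72% of 20182 in the adult were that much higher. Folds for such counts were taken on CPM + 10. The median log2 ratio of the 12 genes was 4.61 at puberty and 4.55 in the adult, against -0.02 over all genes tested in either library. Des, the muscle intermediate filament desmin, stood at 456 CPM at puberty and 830 CPM in the adult, against 2.00 and 1.80 CPM in Pdgfra+ cells. It was detected in 36 of 44 and 96 of 107 satellite-like cells. Desmin is also a mural cell gene, and the mural-like cells of these libraries held 395 and 530 CPM of it. They also held 123 and 212 CPM of the integrin gene Itga7, against 113 and 58.4 CPM in satellite-like cells, and 74.0 and 109 CPM of Heyl, against 101 and 101 CPM. Chrdl2, a secreted BMP antagonist, stood at 282 and 265 CPM against 0.0465 and 0.101 CPM. Fgfr4, an FGF receptor of the myogenic lineage, stood at 270 and 244 CPM, and Musk, the receptor kinase of the neuromuscular junction, at 302 and 407 CPM. Sdc4, a heparan sulfate proteoglycan used to isolate satellite cells, stood at 2138 and 2552 CPM against 157 and 190 CPM. The 12 markers summed to nearly the same level at both stages, with an adult-to-puberty ratio of 1.004 (0.947 to 1.06).

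**Figure D2:**
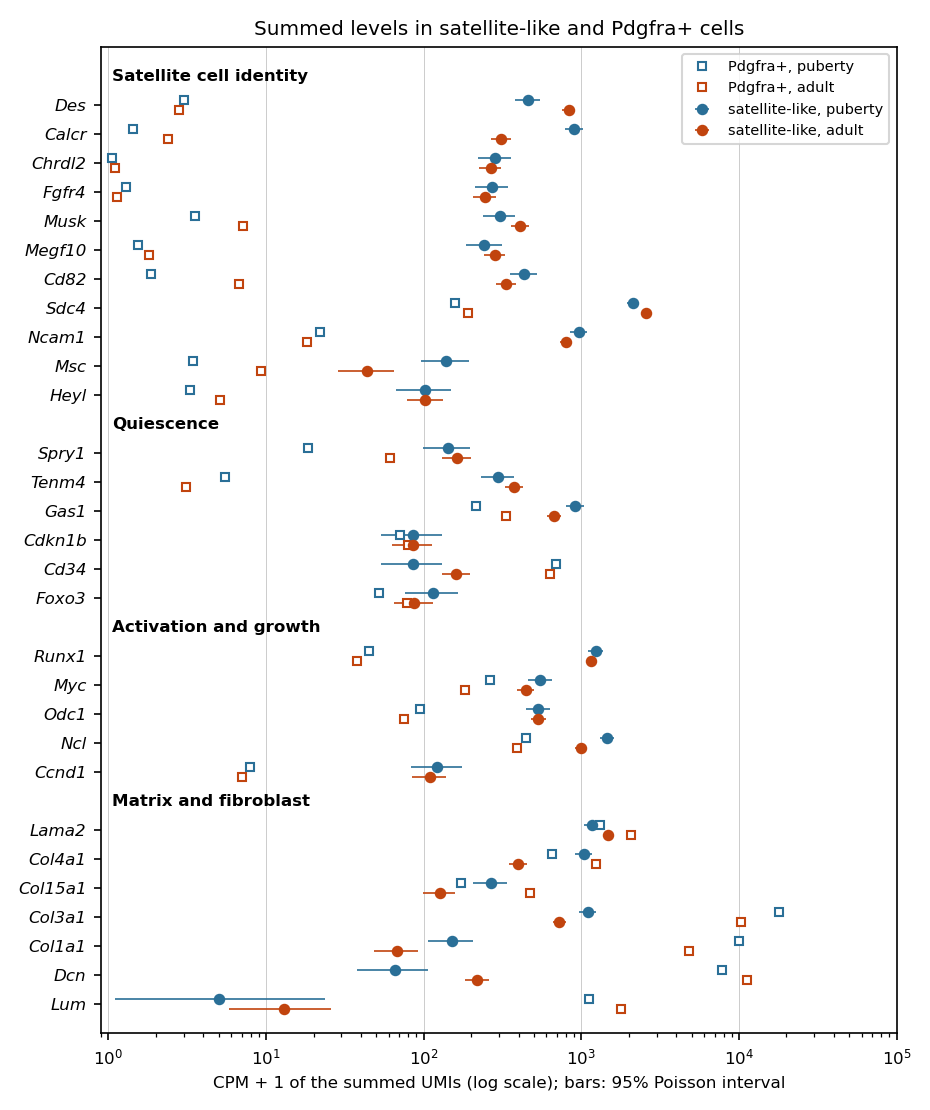
Levels of named genes in the summed satellite-like cells (filled circles, with 95% exact Poisson intervals) and the summed Pdgfra+ cells (open squares) of each library, on a log axis of CPM + 1. The identity genes sit far to the right of their Pdgfra+ squares, the quiescence genes are mixed, the activation and growth genes lie to the right, and Col1a1, Dcn and Lum lie far to the left.

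Beyond the chosen markers, the genes most above the Pdgfra+ cells in both libraries included several known from skeletal muscle. The order was set by the smaller of the 2 libraries' ratios. Asb5, a muscle ankyrin repeat gene, led with 1113 CPM at puberty and 1091 CPM in the adult, against 0.533 and 0.776 CPM in Pdgfra+ cells. Chodl, a membrane lectin, followed with 831 and 681 CPM against 0.190 and 0.291 CPM. Mybpc1, slow myosin binding protein C, stood at 484 and 302 CPM, and Ncam1, a neural adhesion molecule that satellite cells also hold, at 960 and 799 CPM. Dmd, dystrophin, was detected in 43 of 44 pubertal and all 107 adult cells, at 1856 and 2415 CPM against 75.6 and 91.7 CPM. The remaining genes of the leading 20 were Bcar3, Chd7, Pde4b, Runx1, Edn3, Erfe, Tenm4 and Cdh13, with 7 genes of the marker check, Des, Calcr, Chrdl2, Fgfr4, Musk, Megf10 and Cd82. Erfe, the hormone erythroferrone, stood at 379 and 211 CPM against 0.195 and 0.133 CPM, and Edn3, an endothelin ligand, at 270 and 220 CPM against 0.313 and 0.186 CPM. Both were thus at well under 1 CPM in the fibroblasts. The 10 genes lowest against Pdgfra+ cells were the fibroblast genes Postn, Lum, Col1a2, Col1a1, Col14a1 and Dcn with Opcml, C3, Ly6a and Ifi205. Postn, the matrix protein periostin, stood at 16.1 and 32.7 CPM against 2675 and 3445 CPM.

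Myogenic factors of the Myod1 family bind E-boxes, so the leading 20 genes were searched for the core CAGCTG, which reads the same on both strands, in the 250 bases before their RefSeq starts (GRCm38.p6). Of the 15 genes with an entry, 4 held it in any of their promoters, or 26.7%, against 13% of 32851 single promoters of 27025 genes. The first share counts genes and the second promoters, which favours the first. The search was chosen after the genes were known, and a match is a description of letters and not of binding. The 4 stretches are shown 5′ to 3′ in the direction of the gene with the E-box in capitals. They lie at chr1:75360042-75360291 (plus strand) for Des, chr10:88605153-88605402 (minus) for Mybpc1, chr4:58285712-58285961 (plus) for Musk and chr2:174760369-174760618 (plus) for Edn3.
Des: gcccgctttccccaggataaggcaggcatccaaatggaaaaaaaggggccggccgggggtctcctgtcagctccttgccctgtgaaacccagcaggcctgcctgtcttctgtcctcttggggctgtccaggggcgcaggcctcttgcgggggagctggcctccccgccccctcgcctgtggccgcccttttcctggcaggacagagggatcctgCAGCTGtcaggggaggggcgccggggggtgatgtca
Mybpc1: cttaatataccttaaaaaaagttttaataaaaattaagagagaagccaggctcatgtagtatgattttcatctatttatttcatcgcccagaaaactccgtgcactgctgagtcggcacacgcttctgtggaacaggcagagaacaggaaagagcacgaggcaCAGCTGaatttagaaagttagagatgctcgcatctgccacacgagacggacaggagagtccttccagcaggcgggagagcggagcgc
Musk: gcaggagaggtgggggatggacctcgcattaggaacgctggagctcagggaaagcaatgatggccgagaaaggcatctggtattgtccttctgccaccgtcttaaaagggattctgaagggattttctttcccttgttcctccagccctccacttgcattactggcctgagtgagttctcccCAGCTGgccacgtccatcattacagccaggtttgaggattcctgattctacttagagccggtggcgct
Edn3: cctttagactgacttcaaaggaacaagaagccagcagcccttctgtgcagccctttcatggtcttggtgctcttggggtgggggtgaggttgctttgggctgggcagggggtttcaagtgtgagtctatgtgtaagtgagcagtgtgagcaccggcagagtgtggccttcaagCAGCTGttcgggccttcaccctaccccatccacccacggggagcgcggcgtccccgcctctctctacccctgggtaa
The first base of the E-box lay 36, 87, 68 and 77 bases before the start of Des, Mybpc1, Musk and Edn3.

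Other regulators of the myogenic lineage were present at low levels. Of the 9 list members that the rule did not use, 6 could be compared at puberty and 7 in the adult. In each library 5 were at least 2-fold higher than in Pdgfra+ cells, against 7.72% and 4.72% of all genes tested. The medians were 2.48 and 1.25 on the log2 scale, and 1.71 and 1.20 over all 9 genes without the minimum of 10 UMIs. Adult Myog (8 satellite-like and 2 Pdgfra+ UMIs) and Pax3 (22 and 2) passed that minimum mainly through the satellite-like cells. The adult median of 1.25 was the value of Myog. Eya1, a transcriptional cofactor of muscle progenitors, stood at 84.7 and 110 CPM against 0.0381 and 0.133 CPM. Pax3, the paralog of Pax7, was detected in 4 of 44 and 13 of 107 cells, at 20.2 and 37.8 CPM. Msc, a repressor that pairs with myogenic factors, stood at 137 and 43.0 CPM. Myf6, a factor of late differentiation, had 0 pubertal and 2 adult UMIs. Among 16 surface molecules and receptors beside Cdh15, 11 pubertal and 10 adult genes were 2-fold higher and 0 and 1 were lower, with medians of 2.55 and 2.40. Shares lower over all genes tested were 7.64% and 7.28%. Itga7, Fgfr4, Cd82, Sdc4, Megf10 and Dag1 of this list had already been counted in the marker check. Vcam1, an adhesion molecule used to sort satellite cells, stood at 182 and 301 CPM against 32.3 and 47.2 CPM. Cxcr4, a chemokine receptor, stood at 88.8 and 49.8 CPM against 0.368 and 1.69 CPM. Egfr was the member below the Pdgfra+ level in the adult, at 603 against 1632 CPM.

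Quiescence genes were not uniformly high. Of 14 genes, 8 were at least 2-fold higher and 3 lower than in Pdgfra+ cells at puberty, and 4 were higher and 4 lower in the adult. The medians were 1.16 and 0.38 on the log2 scale. Over all genes tested, 7.72% were at least 2-fold higher and 7.64% lower at puberty, and 4.72% and 7.28% in the adult. The higher members included Spry1, an inhibitor of FGF signaling that guards quiescence, at 141 and 162 CPM against 17.5 and 60.1 CPM. Tenm4, a teneurin, stood at 295 and 373 CPM against 4.502 and 2.10 CPM, and Gas1, a growth arrest gene, at 912 and 672 CPM against 214 and 331 CPM. The cell cycle inhibitor Cdkn1b was close to the fibroblast level, at 84.7 and 84.2 CPM against 69.4 and 78.3 CPM, and so was Foxo3 in the adult, at 85.9 against 77.5 CPM. Cd34, a marker of quiescent satellite cells that mammary fibroblasts carry too, lay below them, at 84.7 and 160 CPM against 691 and 631 CPM. Tek, the angiopoietin receptor, and Angpt1, its ligand, were lower as well, with Angpt1 at 1 pubertal and 0 adult UMIs. The list's sum was 2.11 (1.99 to 2.25) times that of Pdgfra+ cells at puberty and 1.20 (1.14 to 1.26) times in the adult. The pubertal value was 1.17 when at least 3 defining genes were required and 1.77 without the Myog-positive and cycling cells. Cdkn1c, 1 of the 8 higher genes, had 216 of its 219 pubertal UMIs in 2 Myog-positive cells.

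Calcr, the calcitonin receptor that restrains satellite cells from cycling (chr6:3685680-3764714, minus strand), was split between cells. It was detected in 25 of 44 pubertal and 59 of 107 adult cells, at 896 and 309 CPM. At puberty 6 cells held 20, 22, 25, 33, 35 and 47 UMIs, 182 of the 222 in all, while no other pubertal cell had more than 5. In the adult 4 cells held 10, 12, 14 and 18 UMIs. The 6 high pubertal cells each had exactly 2 of the 4 defining genes, and none had a Myog UMI. The adult-to-puberty ratio of 0.345 (0.282 to 0.422) turned to 2.00 when at least 3 of the defining genes were required. After each cell was thinned to 3000 UMIs, Calcr was present in 39.0% (24.2% to 55.5%) of 41 pubertal and 41.4% (31.6% to 51.8%) of 99 adult cells, and in 0.0755% and 0.107% of Pdgfra+ cells.

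Part of the Notch pathway, which keeps satellite cells undifferentiated, stood above the fibroblast level and part did not. Of the 13 Notch genes compared at puberty 6 were at least 2-fold higher and 0 lower, and of 14 in the adult 5 were higher and 0 lower. Among all genes tested 7.72% and 4.72% were that much higher. The medians were 0.63 and 0.20 on the log2 scale. Notch1 stood at 133 and 110 CPM against 4.88 and 16.4 CPM, and Notch3 at 109 and 129 CPM against 4.98 and 5.37 CPM. The target genes Heyl and Hey1 stood at 101 and 101 CPM and at 40.3 and 29.2 CPM, against 2.28 and 4.14 CPM and 0.938 and 1.48 CPM. The ligand Dll1 stood at 36.3 and 41.2 CPM against 0.296 and 0.348 CPM. Notch2, Rbpj (the DNA-binding partner of all Notch receptors), Hes1 and Jag1 lay below the Pdgfra+ level in both libraries, by less than 2-fold on CPM + 10, with Rbpj at 113 and 131 CPM against 207 and 196 CPM. Nrarp and Dll4 had no UMI in any satellite-like cell.

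Genes of activation and growth were higher than in Pdgfra+ cells in both libraries. Of 15 genes, 11 were at least 2-fold higher and 0 lower at each stage, against 7.72% and 4.72% of all genes higher. The medians were 1.14 and 1.24 on the log2 scale. The sum was 3.11 (2.96 to 3.26) times the Pdgfra+ sum at puberty and 3.15 (3.05 to 3.26) times in the adult. Runx1, a factor of proliferating myoblasts, was detected in 42 of 44 and 90 of 107 cells, at 1234 and 1148 CPM against 44.2 and 36.5 CPM. Tnfrsf12a, the TWEAK receptor, stood at 557 and 473 CPM against 76.8 and 61.0 CPM. Odc1, the entry enzyme of polyamine synthesis, stood at 532 and 533 CPM, and Ncl, the nucleolar protein nucleolin, at 1456 and 992 CPM against 445 and 392 CPM. Myc stood at 549 and 443 CPM against 264 and 182 CPM, and the G1 cyclin Ccnd1 at 121 and 108 CPM against 6.95 and 6.05 CPM. Srm, the spermidine synthase, was the largest exception, at 16.1 and 17.2 CPM against 29.3 and 24.2 CPM, and Hmga2 had no UMI.

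Immediate early and stress genes, which tissue dissociation raises in many cell types, were abundant in both populations. Their sum in satellite-like cells was 0.706 (0.689 to 0.723) of the Pdgfra+ sum at puberty and 0.848 (0.836 to 0.860) in the adult. Of 25 genes, 4 were at least 2-fold higher and 9 lower at puberty, and 3 higher and 4 lower in the adult. Shares over all genes tested were 7.72% higher and 7.64% lower at puberty, and 4.72% and 7.28% in the adult. Fos stood at 4909 and 5743 CPM against 6252 and 7754 CPM, and Egr1 at 3413 and 4714 CPM against 3679 and 4774 CPM. The heat shock genes Hspa1a and Hspa1b were among the higher ones at puberty, at 234 and 218 CPM against 46.9 and 36.8 CPM. The flow-responsive factor Klf2 was lower, at 153 and 168 CPM against 1023 and 726 CPM. Since Fos and Myc respond to dissociation, the part of cell isolation in the activation values was not tested.

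Scaling moved these ratios. Across all genes, 1549 were at least 2-fold higher and 1533 lower at puberty, so that 50.3% of such genes were higher, and 952 and 1469 in the adult (39.3% higher). With TMM scaling every log2 ratio to Pdgfra+ cells dropped by 0.55 at puberty and by 0.23 in the adult, and the split became 599 and 1996 (23.1% higher) and 677 and 1660 (29.0% higher). The activation and growth sum then stood at 2.12 and 2.69 times the Pdgfra+ sum and the quiescence sum at 1.44 and 1.02 times. List counts past 2-fold and list medians are given without TMM. The drop takes the pubertal activation and growth median of 1.14 under the 2-fold mark. The Notch medians of 0.63 and 0.20 are about as large as the drops.

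Commitment to differentiation was seen in few cells. Myog, the factor that opens terminal differentiation (chr1:134289989-134292548, plus strand), had UMIs in 2 of 44 pubertal and 3 of 107 adult cells. After thinning to 3000 UMIs the shares were 4.88% (0.596% to 16.5%) of 41 and 3.03% (0.629% to 8.60%) of 99 cells, with intervals that overlapped. One pubertal cell of 12268 UMIs held 69 of the Myog UMIs, with 140 UMIs of the cell cycle inhibitor Cdkn1c, 65 of the cardiac actin gene Actc1 (an early sarcomeric actin), 116 of the titin gene Ttn and 15 of the fusion gene Mymk. It had Myod1 and Cdh15 but no Pax7 or Myf5 UMI. The other pubertal cell held 9 Myog, 76 Cdkn1c, 18 Actc1 and 2 Mymk UMIs, again without Pax7 or Myf5. The 3 adult cells held 4, 2 and 2 Myog UMIs, and no Actc1 or Mymk. The genes most above the other 146 cells in these 5 pooled cells were Cdkn1c, Actc1, Dpp6, Ttn, Mymk, Epha7, Mylk4, Fndc5, Myo18b and Tmem201. Cdkn1c stood at 5751 against 6.31 CPM, and 216 of its 219 pubertal UMIs were those of the 2 Myog-positive cells. The rule itself favours cells that still hold Pax7 or Myf5, and the larger set of 71 pubertal and 145 adult cells in the same clusters without a Pdgfra UMI gave 6 and 4 Myog-positive cells after thinning.

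The wider differentiation lists were mixed. In the commitment and fusion list 8 of 14 genes were at least 2-fold higher at puberty and 7 of 13 in the adult, with 2 lower at each stage. Shares over all genes tested were 7.72% and 4.72% higher, and 7.64% and 7.28% lower. The acetylcholine receptor genes Chrna1 and Chrnb1 were not confined to the Myog-positive cells. They had UMIs in 15 and 20 and in 17 and 52 cells, at 117 and 56.7 CPM and at 105 and 127 CPM, against at most 1.44 CPM in Pdgfra+ cells. Rapsn, which clusters these receptors, stood at 48.4 and 58.4 CPM against 0.190 and 0.182 CPM. Sarcomere genes were low. Myh2, Myh7, Tnni1 and Tnnc1 had no UMI in any satellite-like cell, and the creatine kinase gene Ckm had 6 pubertal and 4 adult UMIs. The sarcomere sum was 37.3 (33.2 to 41.9) times that of Pdgfra+ cells at puberty and 7.78 (6.52 to 9.23) times in the adult, and without the Myog-positive and cycling cells it was 8.66 and 7.42 times.

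Cycling cells were also rare. No pubertal and 3 adult cells had UMIs of at least 3 of 12 cell cycle genes after thinning, or 0 of 41, which allows a share of up to 7.32% (3 counts; the Clopper-Pearson bound is 8.60%), and 3.03% (0.629% to 8.60%) of 99. The share was 0.130% of pubertal and 0.204% of adult Pdgfra+ cells at the same depth. The 3 adult cells held 33, 42 and 34 UMIs of the proliferation marker Mki67 and 27, 33 and 30 of the topoisomerase Top2a, and all 3 held UMIs of Pax7 and Myod1 but none of Myog. Of the other cells, 1 adult cell held 1 Mki67 UMI and 2 pubertal cells held 2 each.

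The matrix genes of fibroblasts were nearly missing, and part of the basement membrane was not. Of 5 fibroblast genes other than Pdgfra, all 5 were at least 2-fold lower in both libraries. Dcn stood at 64.5 and 218 CPM against 7844 and 11211 CPM, or 0.823% and 1.95% of the Pdgfra+ level, and Col1a1 at 1.50% and 1.39% of it. Fn1 stood at 1.50% and 2.36%, Nid1 at 1.23% and 2.68%, and Lum lower, at 0.359% and 0.670%. The part of free RNA in these values was not tested. Col3a1 lay above them, at 6.13% and 7.04%, and had UMIs in 44 of 44 and 89 of 107 cells. The laminin chain gene Lama2, whose product muscle fibers need in their basement membrane, stood at 1162 and 1481 CPM, or 88.5% and 72.0% of the Pdgfra+ level, in 43 of 44 and 106 of 107 cells. The collagen IV gene Col4a1 stood at 1033 CPM at puberty, 159% of the Pdgfra+ level, and at 394 CPM in the adult, 31.9% of it. Col15a1 stood at 266 and 126 CPM, or 156% and 26.5%. The laminin chain genes Lama4 and Lamb1 had 0 and 1 pubertal and 5 and 8 adult UMIs. Of the 15 basement membrane and matrix genes, 0 were at least 2-fold higher, and 9 at puberty and 13 in the adult were lower. Among all genes tested, 7.64% and 7.28% were lower by that much.

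**Figure D3:**
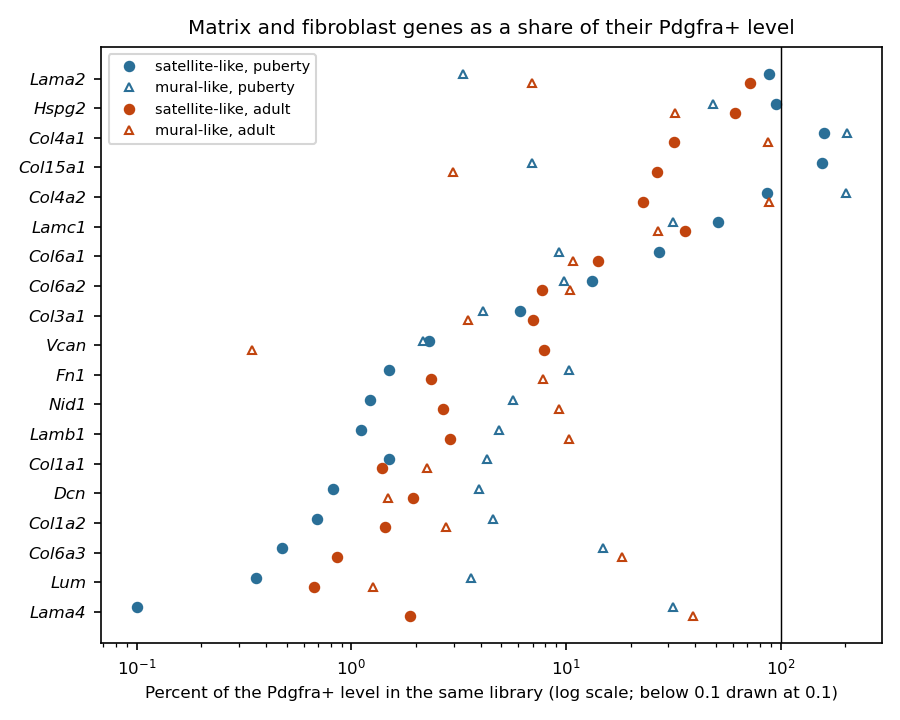
Matrix and fibroblast genes in satellite-like (filled circles) and mural-like cells (open triangles) as a percent of the Pdgfra+ level in the same library, on a log axis. The vertical line marks 100%, and genes under 50 CPM in Pdgfra+ cells are left out. Lama2 and Hspg2 lie close to the line in satellite-like cells while Fn1, Nid1, Dcn and Lum lie near 1% to 3% or below.

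Markers of Schwann, epithelial and immune cells were at or near 0, while several mural genes were not. Among 9 mural genes, Acta2 stood at 327 and 284 CPM against 25.6 and 12.4 CPM in Pdgfra+ cells and Tagln at 96.8 and 206 CPM. Notch3, which is also a Notch receptor of satellite cells, stood at 109 and 129 CPM, in 17 of 44 and 44 of 107 cells. Mcam had 12 pubertal and 5 adult UMIs, while Myh11 and Pdgfrb had 0 pubertal UMIs and 1 adult UMI each. Cell by cell, the mural sum ranged from 0 to 2282 CPM at puberty and from 0 to 4460 CPM in the adult. Over all cells it was 601 and 638 CPM in satellite-like and 23716 and 22358 CPM in mural-like cells. The list includes Rgs5, Notch3 and Myh11, by which the mural-like cells were chosen, so their sum is high partly by that choice. Of 7 Schwann cell genes 5 had no pubertal and 4 no adult UMI, Sox10 included. The endothelial genes Vwf, Cdh5, Tie1 and Cldn5 were at 0 in both libraries, as were all 5 epithelial genes. Pecam1 of the same endothelial list had 2 pubertal UMIs and 22 adult ones in 8 of 107 cells. The adult endothelial sum was 37.8 CPM, 1.77 (1.11 to 2.69) times the Pdgfra+ sum, with 1 cell at 1533 CPM, and its part in other results was not tested. The immune list had 0 pubertal UMIs and 3 adult ones, all of Cd68. The tendon genes Tnmd and Mkx, 2 of 3 fat cell genes and, at puberty, Krtdap of the skin genes were at 0 as well.

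Between puberty and adulthood, the identity, surface, Notch and activation genes of the satellite-like cells had few or no members past 2-fold, while cell cycle, sarcomere, commitment and imprinted genes had more. Of 7676 genes compared, 5.48% were at least 2-fold higher and 4.53% lower in the adult, with a median log2 ratio of -0.05. In the far deeper Pdgfra+ sums 0.834% and 0.348% of genes were, with a median of 0.01. The 12 identity markers had 0 higher and 2 lower (Calcr and Msc), and the 16 surface genes and the 10 Notch genes compared had 0 in either direction. The activation and growth list had 0 of 14 in either direction, and its sum ratio was 0.917 (0.866 to 0.972). The quiescence list had 2 of 13 lower, Calcr and Cdkn1c, and its median was -0.01. Its sum ratio was 0.636 (0.587 to 0.688), 0.781 without the Myog-positive and cycling cells, and 1.16 when at least 3 defining genes were required. Immediate early genes summed to 1.33 (1.30 to 1.37) times the pubertal level, against 1.11 times in Pdgfra+ cells, with 1 of 25 genes at least 2-fold higher and 0 lower. Des stood at 1.82 (1.48 to 2.25) times its pubertal level.

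The lists of differentiation and division had larger ratios, in which a few cells held many of the UMIs. The sarcomere sum in the adult was 0.192 (0.155 to 0.236) of the pubertal one, with 1 of 9 genes higher and 5 lower, and 0.788 (0.576 to 1.09) without the Myog-positive and cycling cells. Commitment and fusion genes had 0 of 12 higher and 3 lower (Myog, Mymk and Gadd45g), and a sum ratio of 0.802 that was 0.955 without those cells. The cell cycle list had 4 of 6 genes higher and a sum ratio of 4.72 (3.24 to 7.10), and 3 adult cells held nearly all its Mki67 and Top2a UMIs. Myogenic factors had 0 of 7 higher and 2 lower, Myog and Msc, with a sum ratio of 0.543 (0.452 to 0.653).

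Imprinted growth genes, known to be active in young growing tissue, had a lower sum in the adult in both populations, and most single genes did not pass 2-fold. Their sum in satellite-like cells was 0.545 (0.506 to 0.588) of the pubertal one, against 0.556 in Pdgfra+ cells, and 4 of the 9 genes compared were at least 2-fold lower (Mest, Plagl1, H19 and Cdkn1c), with a median of -0.51. In Pdgfra+ cells 2 of 12 were, with a median of -0.36, and Cdkn1c stood at 1.44 times its pubertal level. Without the Myog-positive and cycling cells the ratio was 0.641. Mest, a hydrolase gene of the paternal allele (chr6:30723547-30748465, plus strand), stood at 545 CPM in 28 of 44 pubertal cells and at 72.2 CPM in 20 of 107 adult ones, a ratio of 0.133 (0.0914 to 0.189). Its ratio in Pdgfra+ cells was 0.810. At 3000 UMIs per cell, Mest was present in 58.5% (42.1% to 73.7%) of pubertal and 17.2% (10.3% to 26.1%) of adult satellite-like cells, and in 5.01% and 3.83% of Pdgfra+ cells. The noncoding RNA gene H19 stood at 165 and 75.6 CPM, and Plagl1, a growth regulator, at 242 and 87.6 CPM. Peg3, a zinc finger gene of muscle stem cells, differed less, at 1093 and 830 CPM, and Meg3 stood at 928 and 825 CPM. Igf2 and Dlk1 had at most 2 UMIs at either stage.

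The genes most lower in the adult were Dpp6, Prune2, Mest and Nppc, in that order. Dpp6, a potassium channel partner, stood at 367 and 3.44 CPM, but 74 of its 91 pubertal UMIs lay in the Myog-positive cells. Prune2 stood at 303 CPM in 18 of 44 pubertal cells and 10.3 CPM in 4 of 107 adult ones, a ratio of 0.0341 (0.0121 to 0.0777), while in Pdgfra+ cells it was 10.4. Nppc, the C-type natriuretic peptide, stood at 613 CPM in 33 of 44 and 117 CPM in 23 of 107 cells, a ratio of 0.191 (0.141 to 0.255), and at most 2.79 CPM in Pdgfra+ cells. Gfra1, a receptor for GDNF, stood at 145 and 24.1 CPM, and Sox11, a factor of embryonic progenitors, at 210 and 61.9 CPM. Kcnma1, S1pr3, Stim2 and Nlrc5 had ratios of 0.202, 0.240, 0.243 and 0.264. The 10 ratios stayed below 1 in each alternative run, with Stim2 reaching the highest value, 0.711, when all cells of the clusters were counted.

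Among the 10 genes most higher in the adult, 9 are described here, and they differed in how far fibroblasts held them too. P2ry14, a receptor for UDP-glucose, stood at 8.07 CPM in 2 of 44 and 184 CPM in 45 of 107 cells, a ratio of 22.8 (6.16 to 191), and at 3.03 and 13.2 CPM in Pdgfra+ cells, where the ratio was 4.37. Hs6st3, a heparan sulfate sulfotransferase, stood at 60.5 CPM in 5 and 605 CPM in 84 cells, a ratio of 10.0 (5.98 to 18.1), against 17.8 and 16.0 CPM in Pdgfra+ cells. Greb1, an estrogen-regulated gene (chr12:16670615-16800886, minus strand), stood at 44.4 CPM in 5 and 313 CPM in 50 cells, a ratio of 7.05 (3.85 to 14.4), while its ratio in Pdgfra+ cells was 0.498. Csmd1 stood at 56.5 and 447 CPM against 64.1 and 61.1 CPM. The remaining genes were Sbsn, Ms4a4d, Anxa1 and the unnamed genes Gm56730 and Gm20186, all of them higher in Pdgfra+ than in satellite-like cells at puberty. Anxa1, which encodes annexin A1, went from 5.31% to 32.1% of the Pdgfra+ level, whereas Dcn went from 0.823% to 1.95% and Col1a1 from 1.50% to 1.39%. The part of free RNA in the Anxa1 level was not tested. Anxa1 had the ratio 4.44 (3.07 to 6.64), and 1.31 when 1 Pdgfra UMI was allowed. Sbsn and Gm56730 turned to 0.877 and 0.864 when all cells of the clusters were counted, among them Pdgfra+ cells.

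**Figure D4:**
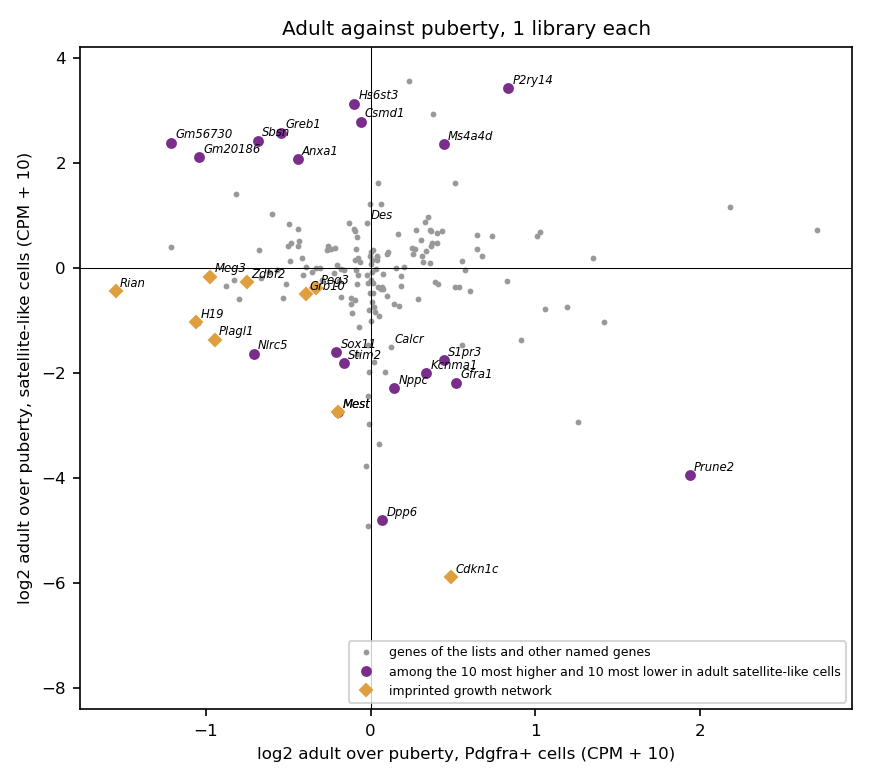
Log2 ratio of adult to pubertal CPM + 10 in Pdgfra+ cells (x axis) and satellite-like cells (y axis), 1 library per stage, for the genes of the lists and the other named genes with at least 10 UMIs over both stages in each population. Purple points are 9 of the 10 genes most higher and the 10 most lower in adult satellite-like cells, orange diamonds the imprinted genes. Most points scatter more on the y axis than on the x axis, Prune2 lies at the lower right and Greb1 at the upper left.

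Within each stage, cells with Myod1 held less Pax7, Myf5, Calcr, Chrdl2, Spry1, Fos and Egr1 than cells without it, while several other genes changed order. These groups come from a defining gene, so the values are descriptive. The 11 pubertal Myod1-positive cells held 283 CPM of Pax7 and 142 CPM of Myf5, against 564 and 634 CPM in the 33 negative ones. The 22 adult positive cells held 458 and 319 CPM, against 630 and 555 CPM in 85. A cell without Myod1 had to show at least 2 of Pax7, Myf5 and Cdh15 to be counted, while a cell with Myod1 needed fewer of them, which favours this order. Calcr and Chrdl2, which took no part in the rule, stood at 348 and 155 CPM in positive and 1145 and 341 CPM in negative pubertal cells, and at 215 and 132 CPM against 340 and 308 CPM in the adult. Of the 11 pubertal positive cells, 2 were the Myog-positive cells, which had no Calcr or Chrdl2 UMI. Spry1 stood at 77.3 (28.4 to 168) against 170 (114 to 245) CPM at puberty. In the adult it stood at 118 (68.7 to 189) against 176 (139 to 220) CPM, so its intervals overlapped at both stages. Those of adult Pax7, adult Calcr and pubertal Chrdl2 overlapped too. At puberty 6 of 44 cells held 182 of the 222 Calcr UMIs. The quiescence marker Cd34 and the Notch target Heyl were higher in the adult positive cells, at 201 against 146 CPM and 118 against 95.9 CPM, and lower in the pubertal ones, at 77.3 against 88.1 CPM and 77.3 against 112 CPM. Des stood at 618 against 382 CPM at puberty and at 632 against 895 CPM in the adult, so its order was not the same at both stages. Runx1 and Odc1 changed order as well, with Runx1 at 1442 against 1140 CPM at puberty and 937 against 1217 CPM in the adult. Myc stood slightly higher in the positive cells at both stages, at 605 against 523 CPM and 451 against 441 CPM. So did Cdkn1a, at 773 against 734 CPM and 757 against 710 CPM. Fos was lower in them, at 2833 against 5856 CPM at puberty and 5033 against 5977 CPM in the adult. Egr1 was lower as well, at 2395 against 3877 CPM and 4339 against 4837 CPM, with overlapping intervals in the adult. Mest stood at 541 against 546 CPM and 41.7 against 82.2 CPM. Intervals overlapped at both stages for Cd34, Heyl, Odc1, Myc, Cdkn1a and Mest, and at puberty for Des and Runx1. Those orders thus lay within counting error.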

How the data were processed

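Single-cell RNA-seq was made with a droplet 3′ kit from sorted stromal cells of 2 libraries. Per the labels, the authors counted UMIs with Cell Ranger 8.0.1 against mm10 and deposited matrices of UMI counts that carry no normalization. Libraries held 255274670 and 259549498 UMIs in 21688 and 23183 barcodes. The members, gene lists and comparisons were chosen with earlier results of these data known.

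From the deposited counts, cells with at least 500 genes and at most 10% mitochondrial UMIs were kept, and UMIs were summed per library over satellite-like, Pdgfra+, mural-like and Schwann-like cells (mural-like: at least 2 of Rgs5, Notch3 and Myh11; Schwann-like: at least 2 Schwann cell markers; both without Pdgfra UMI). Genes with at least 10 UMIs in the 2 sums together were compared as ratios of CPM + 10, and past 2-fold counted as higher or lower. Lists were described without the 4 defining genes. A gene could stand in several lists, so list counts are not independent. Genes of the marker check recurred among surface, myogenic (Msc), Notch (Heyl), quiescence (Calcr, Chrdl2) and commitment genes (Musk). Myog was both a myogenic and a commitment gene. Intervals were 95%: exact Poisson for sums, Clopper-Pearson for shares, conditional binomial for ratios. They cover counting error only, and with 1 library per stage no test between groups was possible. Shares were also taken after thinning each cell to 3000 UMIs. Predicted doublets were the cells with the highest Scrublet scores (Scanpy 1.11.5), in a number set from the barcodes recovered, and were kept in the sums, and each library was clustered (Leiden). TMM factors came from edgeR 4.0.16 in R 4.3.3, and the rest was computed in Python 3.11.15 with numpy 2.4.6, scipy 1.17.1 and pandas 2.3.3. The interval code was tested on simulated data.

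Named genes were list members, the 20 highest and 10 lowest over Pdgfra+ cells in both libraries, the 10 highest and 10 lowest between stages, and the 10 highest in Myog-positive cells. A few items among these are not reported here. All needed at least 100 CPM in the higher group, and those between stages and for Myog a UMI in at least 25% of its cells. Gene coordinates are from GENCODE and promoter sequences from RefSeq, both GRCm38.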

Additional observations from a re-analysis of the deposited data

Results flagged for a closer look

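A set of 13 list members and named genes stood out because the adult-to-puberty ratio went one way in satellite-like cells and the other way in Pdgfra+ cells. The set is not complete. Calcr also went opposite ways (0.345 against 3.12), at 0.440 and 1.37 CPM in Pdgfra+ cells. The share of all genes that did so is not given. Greb1, Sbsn, Gm56730, Gm20186, Prune2 and Gfra1 had been named for their extreme ratios between stages in satellite-like cells. The difference between the populations was not tested, since each stage had 1 library. Higher in adult satellite-like but lower in adult Pdgfra+ cells were Greb1 (7.05 against 0.498), Sbsn (8.95 against 0.592), Gm56730 (6.69 against 0.422), Gm20186 (5.68 against 0.463) and the smooth muscle gene Tagln (2.13 against 0.517). The endothelial gene Pecam1 stood at 4.69 against 0.394, on 2 pubertal and 22 adult UMIs, and at 3.43 without its highest cell. Lower in adult satellite-like but higher in adult Pdgfra+ cells were Prune2 (0.0341 against 10.4), Gfra1 (0.166 against 1.75) and Msc (0.313 against 3.38). The early response gene Egr2 stood at 0.563 against 2.55. The basement membrane genes Col4a1 (0.381 against 1.90), Col4a2 (0.563 against 2.12) and Col15a1 (0.471 against 2.76) were also in this set. Of the 11 basement membrane and matrix genes compared in satellite-like cells, 2 were at least 2-fold lower and 0 higher in the adult.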

How the results depend on the processing

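Each value was recomputed under other choices of cells, scaling and thinning. Of the shares and the quiescence, activation and immediate early sums so recomputed, 107 stayed within their counting intervals, 44 moved beyond them and 1 turned direction. Sums of a list are given over Pdgfra+ cells at puberty and in the adult, then adult over puberty between stages. With at least 3 of the 4 defining genes required, the shares were 0.0697% and 0.148%, the quiescence sum was 1.17 times that of pubertal Pdgfra+ cells and its adult-to-puberty ratio turned to 1.16, activation and growth stood at 0.983 between stages, immediate early genes at 0.657, 0.930 and, between stages, 1.57, no Myog-positive cell was left (0% at both stages), and Calcr turned to 2.00. With 1 Pdgfra UMI allowed, immediate early genes stood at 0.725 at puberty. Over all cells of the clusters, which in the adult include cycling Pdgfra+ cells, the shares were 0.385% and 1.02%, adult quiescence 1.09 and 0.585 between stages, activation and growth 2.77, 1.94 and 0.634, immediate early genes 0.759, 0.744 and 1.09, and 21.1% of adult cells were cycling. There the basement membrane sum turned to 1.87 between stages (median log2 1.14), Sbsn to 0.877, Gm56730 to 0.864 and Des to 0.742. Without a filter on low genes that median was 0.11.

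A pair of choices was added after seeing the data. The first, cluster cells without a Pdgfra UMI, gave shares of 0.330% and 0.631%, quiescence of 2.38 at puberty and 0.562 between stages, and immediate early genes of 0.906 in the adult and 1.45 between stages. The other, without Myog-positive and cycling cells, gave quiescence of 1.77 and 0.781 and immediate early genes of 0.877 and 1.38. Among the other choices, TMM scaling gave quiescence 1.44 and 1.02, activation and growth 2.12, 2.69 and, between stages, 0.973, immediate early genes 0.481, 0.724 and 1.41, and turned the pubertal imprinted sum to 0.842 of the Pdgfra+ level. The mean of each cell's CPM gave adult quiescence of 1.32 and 0.717 between stages, activation 3.02 and immediate early genes 0.860. With at least 2 Myog UMIs required after thinning, 0% of adult cells were positive. Except where a choice of cells or scaling was named, the cause was not tested. No paired analysis was possible because each stage had 1 library. At this depth 7676 genes had enough UMIs to be compared between stages in satellite-like cells, against 21822 in Pdgfra+ cells.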
